A study of Nematostella vectensis with 136 samples.

Results

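Described here are 60 genes of the starlet sea anemone, Nematostella vectensis, whose RNA level was higher in animals of a light:dark arm (LD) than in animals of a dark:dark arm (DD) before and after the light cycle was taken away. They were chosen by that very difference from the 24384 genes of the study. For each gene the median of log2(CPM + 2) over DD libraries was subtracted from the median over LD libraries in 3 periods, time points T1 to T6, T7 to T12 and T13 to T17, where CPM is the count divided by the library's total and multiplied by 1e6. Of 8603 genes with a mean of at least 10 CPM, 1956 had all 3 differences above 0. In 1169 of those, both later differences were at least 0.5 of the first one, and the 60 with the largest smallest difference were taken. The arm difference in each period is therefore what chose the members, and it is given below as a description with no test.

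LD animals had lived under a light:dark cycle for 1 month, were sampled under it every 4 h for 24 h (T1 to T6), and were sampled for 44 h more (T7 to T17) after the cycle had been removed. DD animals had lived in constant darkness for the same month and were sampled in darkness at the same 17 time points. All were adults, RNA came from whole organisms, and each arm and time point had 4 libraries, lettered A to D, 136 in all. The labels give no clock times, no number of animals per library and no light history of DD animals before that month. Nothing says that the 4 libraries came from separate cultures, so p-values cover only the spread between libraries, which may be technical. From T7 on both arms were dark, and the arms differed in light history rather than in light.

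Nematostella is a burrowing cnidarian with no eyes that nevertheless responds to light. Its genome holds homologues of the animal clock genes Clock and Cycle and several cryptochromes, which are blue-light photoreceptors or clock proteins in other animals, and transcripts that cycle under a light:dark regime are known in this species. Which of these proteins, if any, the 60 members encode is not known here, because the identifiers of the count table are not paired with names in the files and 0 of them matched the table of gene names. Members are therefore given by identifier, with no role and no sequence.

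Libraries held between 2185 and 749294 counts, with a median of 538017. The 3 libraries under a limit of 179339 counts, replicate D of LD at T14 and, of DD, replicate D at T1 and replicate B at T4, were left out of all levels below, which leaves 67 LD and 66 DD libraries. At the median depth of those, 1 count is worth 1.85 CPM, so values of a few CPM rest on 1 or 2 counts. Whole animals were measured, so fewer cells that express a gene and less RNA per cell cannot be told apart. Both arms share their sequencing lanes, lane 5 until T12 and lane 7 from T13.

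For most members the arm difference was small. The smallest of the 3 differences was at least 1 (log2) for 6 members, from 0.5 to under 1 for 6, and under 0.5 for 48. The median difference over the members was 0.44 in T1 to T6, 0.52 in T7 to T12 and 0.61 in T13 to T17, beside 0.04, 0.03 and 0.03 over the 8603 genes. It was largest in T1 to T6 for 9 members, in T7 to T12 for 23 and in T13 to T17 for 28. The rule drops genes whose later differences fall far below the first, with no such limit the other way. This split and the rise of the medians are therefore partly fixed by the rule and do not show a difference that grew after removal. In no member and no period did the arms fail to overlap: the lowest LD library never lay above the highest DD library (0 such cases). The same count was not made over the 8603 genes, so it says nothing particular about the members.

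**Figure D1:**
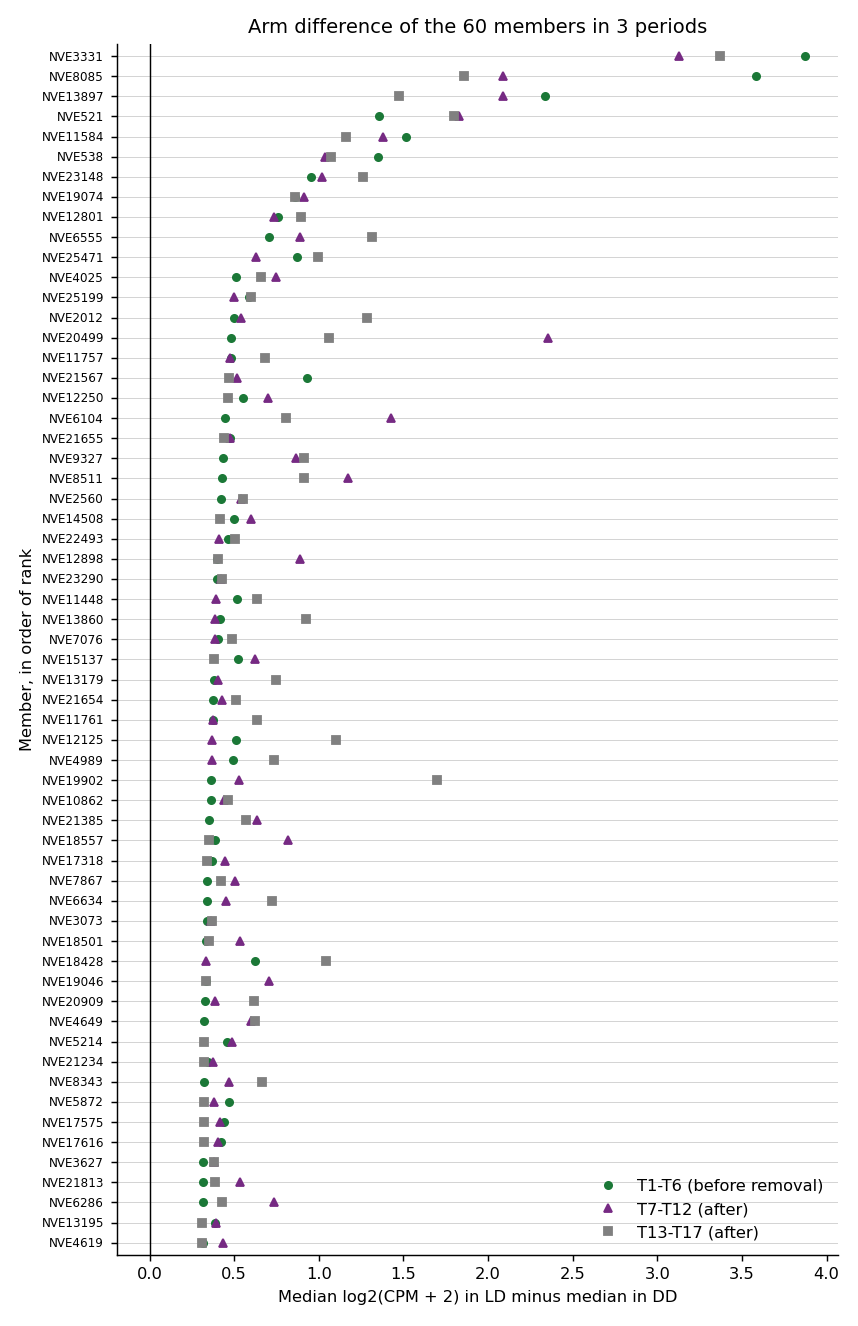
Median log2(CPM + 2) over LD libraries minus the median over DD libraries, for the 60 members in order of rank (top to bottom), with 1 symbol for each of the 3 periods. The members were chosen on these values. A few members at the top lie above 1 in all 3 periods and most of the others between 0.3 and 1.

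The median of LD libraries was above that of DD libraries at a median of 13 of the 17 time points over the members, against 9 over the 8603 genes. These counts come from the values the rule ranked and are largely fixed by it. NVE8085 was higher in LD at all 17, and 15 members at 15 or more. Libraries of the same arm and time point differed more in the members than in other genes. Their residual SD, the spread of log2(CPM + 2) around the mean of the 4 replicates, had a median of 0.95 over the members and 0.56 over the 8603 genes. Genes of wide spread reach large differences of medians more easily, so the rule may have favoured them. The members were also at a lower level, with a median mean of 19.3 CPM, against 27.2 over the 8603 genes.

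All 60 members passed the filter on low counts of the tests below, which were run with edgeR's quasi-likelihood method on 10257 genes (Benjamini-Hochberg over all genes tested, threshold 0.05). None of these tests is of the arm difference in a period.

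NVE8085, second in rank, was the member with the most regular arm difference. On the first day its LD libraries ranged from 5.35 to 265.5 CPM with a median of 48.0, and its DD libraries from 0 to 9.61 with a median of 2.07. Of the 24 LD libraries, 22 lay above the highest DD library. After removal the LD libraries ranged from 0 to 20.1 CPM with a median of 6.50 in T7 to T12, against 0 to 4.82 with a median of 0 in DD, and 15 of the 24 LD libraries lay above the highest DD library. In T13 to T17 they ranged from 0 to 12.7 with a median of 5.26, against 0 to 9.15 with a median of 0 in DD, and 3 of 19 LD libraries lay above the highest DD library. The differences of medians were 3.58, 2.09 and 1.86 (log2), so 0.519 of the first-day difference was kept, just above the limit of 0.5, while the LD median in CPM dropped to about the worth of 3 counts.

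**Figure D2:**
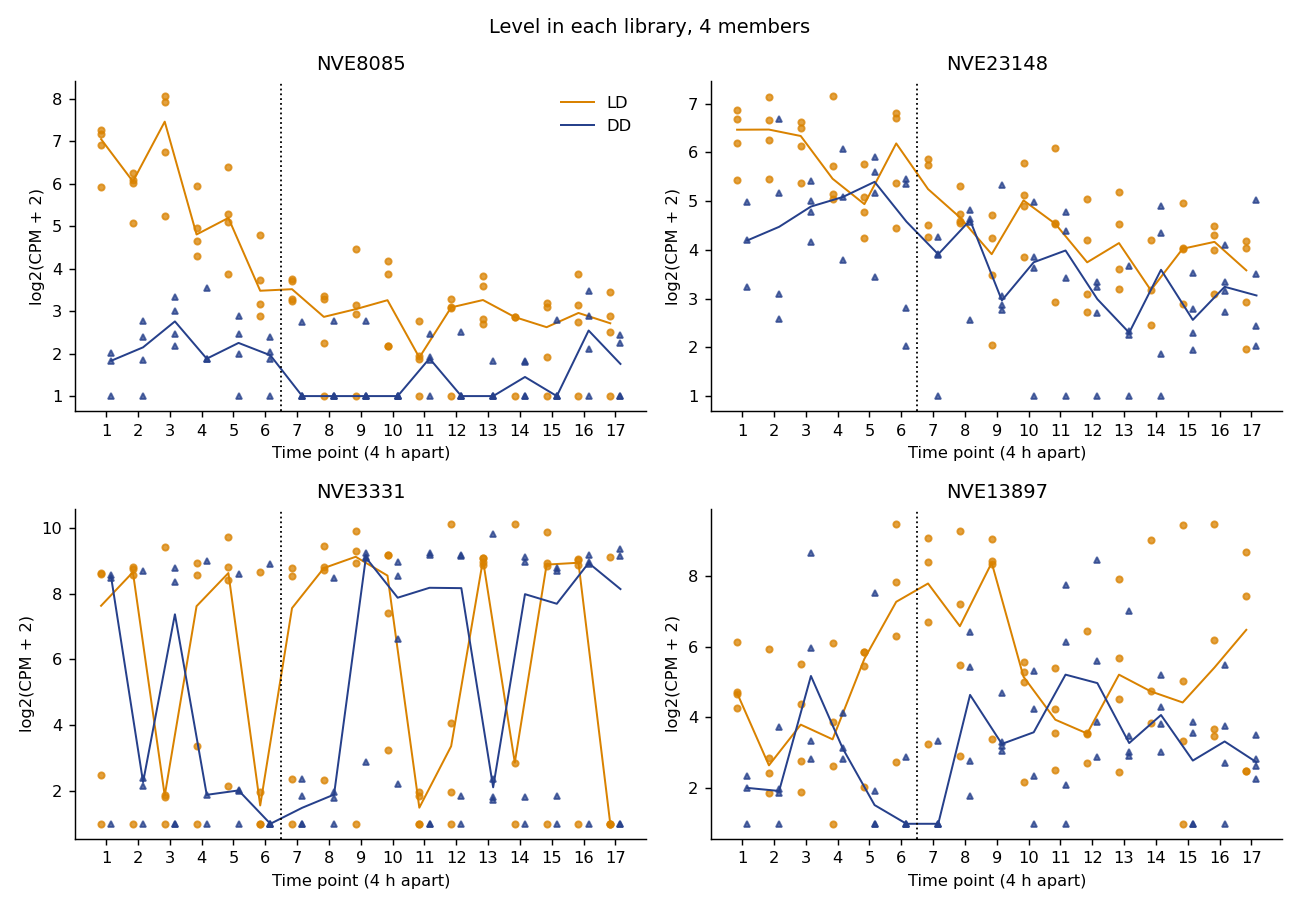
Level of NVE8085, NVE23148, NVE3331 and NVE13897 as log2(CPM + 2) in each library (LD circles left, DD triangles right of each time point; lines join the medians of the up to 4 libraries) at T1 to T17; the dotted line marks removal of the cycle in LD. NVE8085 and NVE23148 decline over the series, NVE3331 is either high or low in a library, and NVE13897 reaches its highest LD values from T6 to T9 and again late in the series.

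Within the first day the LD level of NVE8085 was not flat. At T1 its 4 LD libraries held 59.0, 118.4, 142.2 and 152.7 CPM, against 0, 1.56 and 2.04 in the 3 DD libraries. At T3 they held 35.7, 105.6, 242.6 and 265.5 CPM, against 2.52, 3.53, 6.00 and 8.11 in DD. By T6 the LD libraries had 5.35, 7.01, 11.3 and 25.8 CPM, against 0, 1.68, 2.10 and 3.23 in DD. Every LD library lay above every DD library at these 3 time points, and the LD level at T6 was close to that of T7, where the 4 LD libraries held 7.51 to 11.5 CPM. The LD level was thus already low at T6, before the cycle was removed. T7 lies 24 h after T1, at the same hour of the cycle. The LD libraries held 59.0 to 152.7 CPM at T1 and 7.51 to 11.5 CPM at T7, a comparison that spans the removal. Whether the fall within the first day was part of a daily course cannot be told from that day alone. The part of the removal in the lower level was not tested.

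NVE3331, first in rank and the member with the highest mean level (254.3 CPM), was either high or low in a library. Its values had a gap: no library lay between 14.6 and 96.8 CPM. Above the gap were 12 of 24 LD and 8 of 22 DD libraries in T1 to T6, 12 of 24 and 11 of 24 in T7 to T12, and 12 of 19 and 10 of 20 in T13 to T17, 36 of 67 LD and 29 of 66 DD libraries in all. Where 12 of 24 libraries were high, the median is the mean of a low and a high value, 172.5 CPM in T1 to T6 and 92.2 in T7 to T12 in LD, against 2.04 and 4.19 in DD. The differences of medians of 3.87, 3.13 and 3.37 (log2) therefore rest on how many libraries of each arm were high. Libraries above the gap ranged from 169.8 to 1114.5 CPM in LD and from 96.8 to 888.8 in DD. High and low libraries occurred within most groups of 4 replicates. Its residual SD of 3.79 was the widest among the members, and its residuals correlated with those of no other member above r = 0.28 (NVE11584, across 133 libraries, which share depth and time point groups).

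NVE11584 also spread widely between replicates. It ranged from 0 to 143.5 CPM in LD with a median of 43.6 in T1 to T6, against 0 to 90.4 with a median of 14.0 in DD. The medians in LD were 31.3 CPM in T7 to T12 and 25.1 in T13 to T17, against 10.8 and 10.1 in DD. The arms overlapped over most of their range in each period.

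NVE23148, NVE12801 and NVE25471 had smaller residual spreads than NVE3331. NVE23148 ranged from 17.0 to 140.4 CPM with a median of 60.2 in LD in T1 to T6, against 2.10 to 101.2 with a median of 29.8 in DD. Its medians were 21.3 CPM in T7 to T12 and 14.1 in T13 to T17 in LD, against 9.55 and 4.73 in DD, and it was higher in LD at 16 of 17 time points. NVE25471 had LD medians of 47.8, 30.8 and 30.4 CPM over the 3 periods, against 25.3, 19.2 and 14.3 in DD. Its lowest LD library lay above 4 of 22 DD libraries in T1 to T6 (15.9 CPM), 14 of 24 in T7 to T12 (20.1 CPM) and 0 of 20 in T13 to T17 (0 CPM). NVE12801 had LD medians of 18.2, 21.6 and 15.2 CPM, against 9.93, 12.2 and 7.24 in DD, with 8 of 24, 9 of 24 and 8 of 19 LD libraries above the highest DD library. The residuals of NVE23148 and NVE25471 correlated best with each other among the members (r = 0.48 across 133 libraries).

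The 2 members of narrowest spread showed small differences in nearly every library group. NVE23290, with a residual SD of 0.32, had LD medians of 77.0, 70.8 and 91.0 CPM over the 3 periods, against 57.8, 52.3 and 67.2 in DD. NVE22493, with a residual SD of 0.44, had LD medians of 88.8, 78.4 and 82.9 CPM, against 64.0, 58.5 and 57.8 in DD, and 14 of 24 LD libraries of T1 to T6 lay above the highest DD library (84.8 CPM), against 10 of 24 in T7 to T12 and 3 of 19 in T13 to T17. Both were higher in LD at 15 of 17 time points. At the other end of the level, NVE17575 and NVE4025 had the lowest means, 10.3 and 10.4 CPM, just above the limit of the rule.

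Members near the limits of the rule did not stand apart from genes just outside it. NVE6286, NVE13195 and NVE4619, at ranks 58 to 60, had smallest differences of 0.313, 0.310 and 0.308 (log2), and NVE9703, NVE11203 and NVE16064, at ranks 61 to 63, had 0.307, 0.303 and 0.302. NVE21567 kept 0.502 of its first-day difference, and NVE21418, the nearest gene outside that condition, kept 0.457.

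Many members were high in the same libraries. Residuals of 210 of the 1770 pairs of members correlated above r = 0.5 across the 133 libraries, and clustering on these correlations joined 18 members in 1 group and 5 in another, with 37 in neither. The group of 18 held NVE12125, NVE13897, NVE521, NVE538, NVE19074, NVE6555, NVE2012, NVE9327, NVE8511, NVE13860, NVE7076, NVE13179, NVE4989, NVE19902, NVE6634, NVE4649, NVE3627 and NVE6286. Its closest pairs were NVE9327 with NVE12125 (r = 0.957), NVE19074 with NVE9327 (r = 0.948) and NVE19074 with NVE12125 (r = 0.940). Over the other 59 members the median correlation with NVE12125 was 0.27, beside 0.01 over the 8602 other genes, 19 members were above 0.5, and NVE2560 (-0.19) and NVE20499 (-0.18) were lowest. These correlations describe libraries that share depth and time point groups.

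Few libraries held most of the counts of this group. The 18 members took between 0.00995% and 0.84% of all counts in LD libraries of T7 to T12, with a median of 0.0181%, against 0.00705% to 0.126% with a median of 0.0129% in DD. In T13 to T17 the range was 0.00988% to 0.408% with a median of 0.0214% in LD, against 0.00788% to 0.0499% with a median of 0.0115% in DD. In T1 to T6 it was 0.0105% to 0.606% with a median of 0.0237% in LD, against 0.00933% to 0.171% with a median of 0.0134% in DD. The highest share was that of LD T8 replicate A, followed by LD T9 replicate C, LD T6 replicate B and LD T9 replicate D. Libraries of the same group stood far apart: at T8 and T9 some LD replicates lay near the DD libraries.

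**Figure D3:**
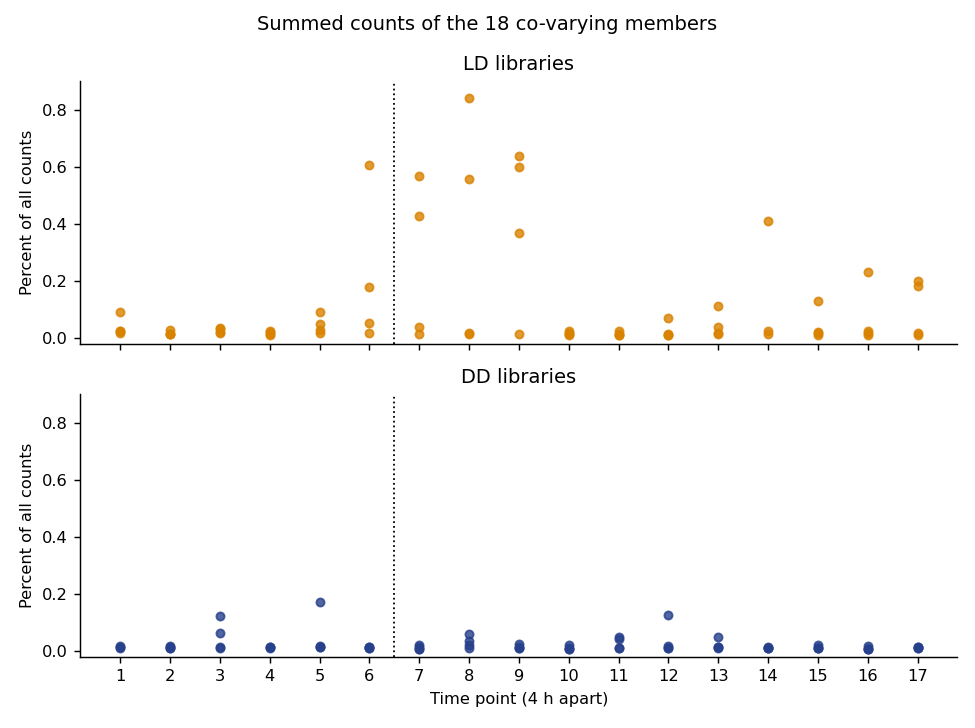
Percent of all counts of a library taken by the 18 co-varying members, for LD libraries (upper panel) and DD libraries (lower panel) at T1 to T17, 1 point per library; the dotted line marks removal of the cycle in LD. Points of 0.2% or more occur in LD libraries from T6 to T9, at T14 and at T16, while the DD libraries stay at or below 0.171%.

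NVE12125 shows the pattern at its most extreme. It ranged from 0 to 1369 CPM with a median of 1.83 in LD in T1 to T6, against 0 to 365.7 with a median of 0.806 in DD. In T7 to T12 it ranged from 0 to 1569 with a median of 2.53 in LD, against 0 to 150.8 with a median of 1.50 in DD, and in T13 to T17 from 0 to 1038 with a median of 2.28 in LD, against 0 to 54.7 with a median of 0 in DD. Its medians differ by about 1 count, while 8 of 24 LD libraries of T7 to T12 and 6 of 19 of T13 to T17 lay above the highest DD library.

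NVE13897, NVE521 and NVE538 were the members of the group with the best ranks, which go by the smallest of the 3 differences. NVE13897 had LD medians of 21.1, 38.6 and 24.7 CPM over the 3 periods with a highest value of 706.1, against 2.58, 7.54 and 7.70 in DD with a highest value of 393.6. NVE521 had LD medians of 9.37, 15.3 and 7.25 CPM with a highest value of 1142, against 1.83, 2.87 and 0.768 in DD with a highest value of 168.5. NVE538 had LD medians of 8.07, 5.31 and 5.39 CPM with a highest value of 306.4, against 1.92, 1.56 and 1.52 in DD with a highest value of 52.0. NVE6555 had LD medians of 5.44, 6.70 and 8.12 CPM, against 2.56, 2.68 and 2.07 in DD. NVE19074 had LD medians of only 1.62, 1.76 and 1.62 CPM, about the worth of 1 count, against 0 in DD in all 3 periods.

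The group of 5 was high in other libraries. It held NVE4025, NVE20499, NVE12898, NVE21385 and NVE19046, and its share of all counts reached 0.281% in LD T5 replicate C, 0.24% in LD T13 replicate B and 0.134% in DD T2 replicate B, beside medians of 0.00585%, 0.0152% and 0.00683% in LD over the 3 periods and 0.00521%, 0.00379% and 0.00337% in DD. NVE20499 was high in some libraries but had counts in only 63 of 133, so it carried little of the group's median share. It ranged from 0 to 2359 CPM in LD in T1 to T6 with a median of 0.948, against 0 to 1211 with a median of 0 in DD, and its LD medians after removal were 8.23 and 2.16 CPM, against 0 in DD in both periods. NVE4025 had LD medians of 7.78, 9.85 and 6.01 CPM over the 3 periods, against 4.85, 4.98 and 3.08 in DD.

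The arm differences were recomputed without the 26 libraries in which NVE12125 lay above the midpoint of its log2 range, 18 of 67 LD and 8 of 66 DD libraries. They were 4, 8 and 6 LD libraries over the 3 periods, against 3, 4 and 1 DD libraries. Without them all 3 differences stayed above 0 for 43 of the 60 members, with medians of 0.36, 0.34 and 0.45 (log2) over the members. Of the group of 18 the difference stayed above 0 in 14 members in T1 to T6, 11 in T7 to T12 and 13 in T13 to T17, and the group's median in T7 to T12 was 0.17, against 0.57 with all libraries. Of the 37 members in neither group, 35 stayed above 0 in each period, and their median in T7 to T12 was 0.40, against 0.48 with all libraries. NVE8085 kept 3.61, 1.85 and 1.86, and NVE19074 and NVE9327 were at 0 in all 3 periods. NVE3331 had 6.34, 1.05 and 0.18 without them, and of the libraries left out 10 of 18 LD and 2 of 8 DD libraries were above its gap. Leaving out libraries in which a member of the group is high lowers the difference of that group by construction. The libraries kept also served to choose the members, so staying above 0 is in part fixed by that choice.

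**Figure D4:**
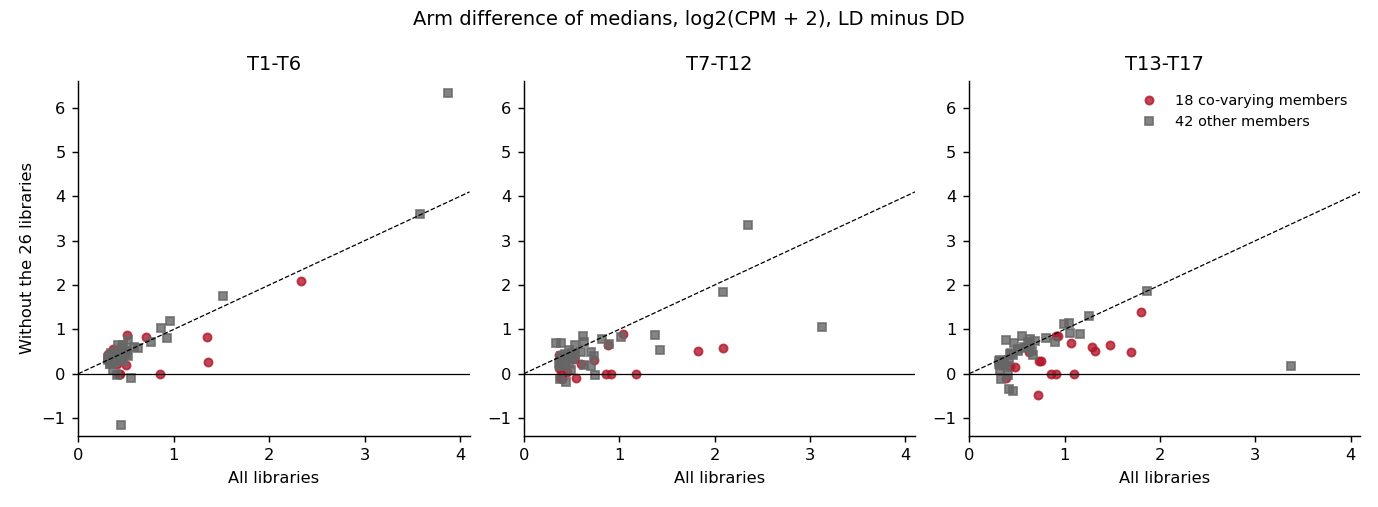
Difference of medians of log2(CPM + 2), LD minus DD, with all 133 libraries (x axis) and without the 26 libraries high in NVE12125 (y axis), in 3 panels for the 3 periods; circles are the 18 co-varying members, squares the 42 others, and the dashed line marks equal values. After T6 most circles lie below the dashed line, several of them at 0.

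The differences used by the rule did not take up the course over time within an arm, which was therefore tested. The rule's minimum mean level can still admit genes through a few high libraries. In LD on the first day 2 of the 60 members had a 24 h component (cosine and sine over the group means, tested jointly with edgeR), beside 0.136% of the 10257 genes. NVE8085 had a log2 amplitude of 1.20 ± 0.23 (SE) with a peak 5.8 h after T1 (edgeR, adjusted p = 0.00531), with its highest medians at T1 and T3. NVE12898 had an amplitude of 1.98 ± 0.40 with a peak at 18.6 h (edgeR, adjusted p = 0.0115). Its values had a gap from 40.5 to 70.8 CPM. Above it on the first day were 3 of 24 LD libraries, with a median of 154.9 CPM, and 0 of 22 DD libraries. Its component may thus rest on few libraries. Over 1 cycle a rhythm cannot be told apart from a change that does not repeat. With a linear trend in the fit neither was called, at an adjusted p (edgeR) of 0.641 for NVE8085 and 0.524 for NVE12898. DESeq2 called neither, and without replicate C of every group 0 were called. NVE8085 also lost its call without replicate B (edgeR, adjusted p = 0.331) and NVE12898 without replicate D (adjusted p = 0.59).

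No member had a 24 h component in DD on the first day. In edgeR 0 of 60 passed, beside 0% of all genes, and DESeq2 called 0. At an unadjusted p under 0.05 in edgeR were 4 members, beside 425 of the 10257 genes. The difference of the 24 h components between LD and DD was passed by 0 members in edgeR, beside 0.0292% of all genes, and by 0 in DESeq2. Here 13 members were at an unadjusted p under 0.05 in edgeR, beside 559 of the 10257 genes. The LD components of NVE8085 and NVE12898 are thus not shown to differ from those in DD.

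After removal, 21 of the 60 members had a 24 h component in LD over T7 to T17, beside 8.75% of all genes. Of the 21, 15 belonged to the group of 18, 1 to the group of 5 and 5 to neither. Their peaks all fell between 3.1 and 5.5 h of the cycle, next to T8, which lies 4 h into it. The group of 18 was high in the same few LD libraries of T7 to T9, so these peaks are not separate observations. Peak times of the other genes called were not compared. NVE12125 had the largest log2 amplitude, 2.70 ± 0.59 (SE; edgeR, adjusted p = 0.00546). NVE2012 followed with 2.41 ± 0.51 (adjusted p = 0.00407), NVE19074 with 2.38 ± 0.51 (adjusted p = 0.00473) and NVE9327 with 2.01 ± 0.53 (adjusted p = 0.0251), all by edgeR. NVE2012 ranged from 0 to 1177 CPM with a median of 4.95 in LD in T7 to T12. Among the 5 in neither group, amplitudes ranged from 0.41 to 1.31. The medians of NVE12125, NVE19074 and NVE538 were under 10 CPM in both arms, so few high libraries brought their means to the rule's limit. In NVE19074 and NVE538, 9 LD and 0 DD libraries lay above the largest gap in their values, 7 of them in T7 to T12. The count of 21, the shared peak and the largest amplitudes are therefore partly fixed by the choice of members.

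The count of 21 depended on the libraries and on the fit, and the count over all genes moved with it. Of the 60 members and of all genes, 21 and 898 were called with all libraries. Without replicate A of every group 0 members and 2 genes were called, and without the 26 libraries high in NVE12125 also 0 and 2. A fit of only the LD libraries of T7 to T17 called 0 members and 39 genes. The counts were 13 and 363 without replicate B, 9 and 427 without replicate D, and 5 and 103 with a linear trend. They were 29 and 1653 with RLE factors, 28 and 1437 in T7 to T12 alone, and 23 and 1282 with DESeq2. The median log2 amplitude over the members tested was 0.50 with all libraries, 0.51 without replicate A, 0.51 in the fit of only those LD libraries and 0.30 without the 26 libraries. NVE12125 is itself a member, so its own loss without its high libraries is built into that setting.

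In DD over T7 to T17 no member had a 24 h component. edgeR called 0 of 60, beside 0.0682% of all genes, and DESeq2 called 0. At an unadjusted p under 0.05 in edgeR were 4 members, beside 963 of the 10257 genes. In 7 members a DD group was at 0 in all libraries, and their fitted DD amplitude depends on the prior count. Over the other 53 members the median amplitude was 0.50 in LD and 0.29 in DD, and 33 of the 53 were larger in LD. Over all 10257 genes the median was 0.20 in LD and 0.17 in DD, so it was larger in LD there too. How many of all genes were larger in LD was not counted. The difference between the arms in this period was not tested.

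**Figure D5:**
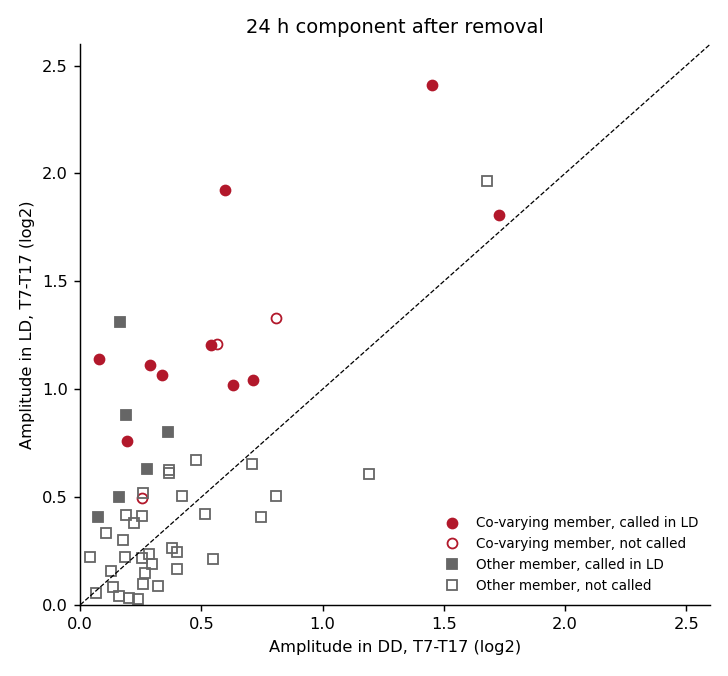
Log2 amplitude of the 24 h component over T7 to T17 in DD (x axis) and in LD (y axis) for the 53 members with no DD group at 0 in all libraries; circles are co-varying members and squares others, filled where edgeR called the LD component, and the dashed line marks equal amplitudes. The filled symbols lie above the dashed line, which is in part fixed, since they were called on their LD component.

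The arm difference of a member could also vary from time point to time point around its mean in the period, which the rule did not fix. This was so for 2 members in edgeR's joint test over 14 degrees of freedom, beside 0.175% of all genes. NVE13179 had F = 4.15 (edgeR, adjusted p = 0.0195) and NVE13897 had F = 3.59 (edgeR, adjusted p = 0.0493). At T9 the 4 LD libraries of NVE13179 held 11.2, 166.5, 250.9 and 397.7 CPM, against 5.28, 9.54, 15.8 and 19.3 in DD. At T10 it ranged from 5.07 to 32.2 CPM in LD and from 13.0 to 19.3 in DD. At T9 the 4 LD libraries of NVE13897 held 8.44, 318.9, 337.3 and 524.2 CPM, against 6.30, 7.15, 7.92 and 24.1 in DD. In both members 3 of 4 LD libraries were far above DD at T9, and 1 was among the DD libraries. The calls were few and unsteady: 0 members without any 1 of the 4 replicate letters, 0 without the 26 libraries high in NVE12125, 9 with RLE factors, 4 with library size alone and 10 with DESeq2. Of all genes 18 were called, 123 with RLE factors, 50 with library size alone, 141 with DESeq2, 0 without the 26 libraries and 0 or 1 without a letter.

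The level averaged over both arms changed during the series in a few members, a contrast the rule did not use. Between T1 to T6 and T7 to T12, 2 members fell, beside 2.76% of all genes, and 2 rose, beside 3.39%. NVE8085 fell (edgeR, adjusted p = 1.07e-06), with means of 6.34 ± 5.24 CPM in LD over T7 to T12 after 70.8 ± 70.0 over T1 to T6 (SD, n = 24 each), and of 1.03 ± 1.79 in DD (n = 24) after 2.92 ± 2.55 (n = 22). Its fitted change is not given, since DD T10 held no count. NVE23148 fell by 1.31 ± 0.22 (log2, SE; edgeR, adjusted p = 1.54e-05). NVE12250 rose by 0.73 ± 0.23 (edgeR, adjusted p = 0.0442) and NVE5214 by 0.41 ± 0.13 (edgeR, adjusted p = 0.0440). Both rises rested on the scaling: with RLE factors or library size alone the 2 falls were called and 0 rises, and of all called genes 24.5% and 14.1% rose, beside 55.2% with TMM factors. Without replicate D NVE12250 was called and NVE5214 was not (edgeR, adjusted p = 0.177). Both rises were also lost with no filter beyond 1 count, without the shallow libraries, without the libraries high in NVE12125, without replicate A, B or C and in DESeq2.

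Between T1 to T5 and T13 to T17, 5 members fell, beside 8.65% of all genes, and 3 rose, beside 8.59%. NVE8085 changed by -2.37 ± 0.34 (log2, SE; edgeR, adjusted p = 4.67e-08) and NVE23148 by -2.07 ± 0.25 (edgeR, adjusted p = 2.6e-10). NVE23148 averaged 13.7 ± 8.62 CPM over T13 to T17 in LD (SD, n = 19), after 67.8 ± 37.8 over T1 to T6 (n = 24), and 8.16 ± 8.65 in DD (n = 20), after 29.7 ± 23.9 (n = 22). The same gene thus fell in both arms while LD stayed above DD. NVE10862 changed by -0.70 ± 0.22 (edgeR, adjusted p = 0.0147), NVE25471 by -0.63 ± 0.16 (adjusted p = 0.00227) and NVE7867 by -0.54 ± 0.19 (adjusted p = 0.0316), all by edgeR. NVE12250 rose by 0.85 ± 0.26 (edgeR, adjusted p = 0.0140), NVE5214 by 0.56 ± 0.14 (adjusted p = 0.00259) and NVE23290 by 0.27 ± 0.07 (adjusted p = 0.00502).

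The falls of NVE8085 and NVE23148 were called in each of the 12 alternatives in which they were tested, in both contrasts. The count of 8 was 3 without replicate C of every group, namely NVE8085, NVE23148 and NVE25471. Calls were also lost for NVE25471 without replicate B, for NVE10862 without D, for NVE7867 without A, B or D, for NVE12250 without B and for NVE23290 without A. NVE12250 and NVE23290 were not called without the libraries high in NVE12125. With library size alone NVE23290 was not called, and 24.4% of all called genes rose, beside 49.8% with TMM factors and 36.7% with RLE factors. The sequencing lane changed together with T13, in both arms, and cannot be told apart from the change to T13 to T17, while T7 to T12 shared the lane of the first day. Members of the group of 18 were called in neither contrast.

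Which genes are members depended on the libraries and the average used. Of the 60, 22 stayed in the first 60 with means in place of medians, among those lost NVE3331 and NVE8085. Between 21 (without replicate D) and 29 (without replicate C) stayed when a replicate letter was left out of every group, and 15 stayed without the 26 libraries high in NVE12125. In these last settings most members still had all 3 differences above 0, 52 to 56 of 60 without a letter and 43 of 60 without the 26 libraries, but were outranked or missed another condition of the rule. The libraries kept are among those that chose the members, so staying above 0 is largely fixed by the choice and is no support for the difference. NVE11584, NVE12801 and NVE25471 kept a place without the 26 libraries, as did NVE8085, NVE521 and NVE23148. With a minimum mean of 20 CPM 27 stayed, and with pseudocounts of 1 and 5 it was 57 and 50. NVE8085 was lost at 20 CPM, with the pseudocount of 5 and where 0.75 of the first difference had to be kept. It was also lost without replicate B and without replicate D.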

How the data were processed

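RNA-seq counts of 136 whole-organism libraries were used. The authors deposited whole-number counts per gene with no normalization, 24384 genes by 136 libraries. The submitters' processing notes name Bowtie2, with no version, and the labels credit Putnam et al. for the genome. How reads were counted, on which strand and gene models, and what was done with reads of similar or overlapping genes is not given in the sources used, so such genes may share reads. The RefSeq table of gene names matched 0 identifiers. Columns were matched to samples by title.

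Members, lists and tests were chosen with earlier results of these data known. Levels are CPM on library totals, with log2(CPM + 2) for medians, over 133 libraries. Tests used edgeR 4.0.16 (R 4.3.3) on all 136 libraries: filterByExpr (10257 genes), TMM factors, 34 group means, 102 residual degrees of freedom, glmQLFit and glmQLFTest, Benjamini-Hochberg over all genes tested, threshold 0.05. DESeq2 1.42.0 (likelihood ratio test) and other settings were alternatives. A log2 amplitude is the length of the cosine and sine components, with an SE of amplitude/sqrt(2F). The scripts were tested on simulated data.

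Residuals are log2(CPM + 2) minus the group mean; co-varying groups come from average linkage on 1 minus r, joined under 0.5. Named are the 12 members of best rank, those at the limits of the rule, the largest calls of each test, the extremes of level, of spread and of correlation with NVE12125, the closest pairs, and NVE12125, which marks the 26 libraries left out and proved to be a member (rank 35). Same-lettered LD and DD libraries of a time point mostly did not deviate together (median r = -0.01, 9 of 65 pairs above 0.1), so LD and DD were not treated as paired. Whether a letter marks a culture or batch across time points within an arm was not tested by it. The closest 2 replicates of a group differed by a chi-square of 2.93 per degree of freedom, so each library counted once.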

Additional observations from a re-analysis of the deposited data

Results flagged for a closer look

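NVE13179 had an arm difference that varied among time points within the periods (edgeR, adjusted p = 0.0195), and so had NVE13897 (edgeR, adjusted p = 0.0493). Both belong to the group of 18 co-varying members, and both calls ended without the 26 libraries high in NVE12125, at adjusted p-values (edgeR) of 1 and 0.952. Over the alternatives the adjusted p of NVE13179 ranged from 0.00056 to 1 and that of NVE13897 from 0.00675 to 0.952. The part of those libraries in the result was not tested beyond leaving them out.

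In 1 group of 4 libraries whose values are printed, 1 library lay far from the other 3: NVE13897 in DD at T9 stood at 24.1 CPM in that library and at 6.30 to 7.92 CPM in the others. The 14 groups of 4 looked at were those of NVE8085 at T1 to T6 and of NVE13179 and NVE13897 at T9, not all printed. Chance alone marks about 1 in 20.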

How the results depend on the processing

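Over 37 calls of single members and their 489 alternatives, 327 kept the call, the others lost it and 0 reversed. Of the alternatives to counts and median levels, 107 stayed within 1.5 times a count or the SD between letters of a level, and 47 moved further. The 2 members with a 24 h component in LD over T1 to T6 became 0 with a linear trend, a fit of only those libraries and DESeq2, and 0 to 3 without a replicate letter. The 21 in LD over T7 to T17 became 5 with a trend, 0 without the 26 libraries high in NVE12125, 0 in a fit of only those libraries and 0 to 24 without a letter. The 2 members with a varying arm difference became 9 with RLE factors, 4 with library size alone, 1 with no filter beyond 1 count, 1 without the shallow libraries, 0 without the 26 libraries, 10 with DESeq2 and 0 to 0 without a letter; with the replicate block it was 1, and the block moved no other count by over 1.5 times, though it ended the rise of NVE12250 by T7 to T12 (edgeR, adjusted p = 0.0525). The 4 members changed by T7 to T12 became 2 with RLE factors, library size alone, no filter, no shallow libraries, no high libraries and DESeq2, and 2 to 3 without a letter; the 8 changed by T13 to T17 became 3 to 6 without a letter. The strict filter (10 counts in 68 libraries) left 16 members to test, so that most losses there are of members not tested: it called 0 for LD over T1 to T6 and 0 for T7 to T12, where none of those called was tested, 4 for LD over T7 to T17, 1 for the varying difference and 2 for T13 to T17. No DD or LD minus DD 24 h component was called in any setting. Of the 60 members 22 stayed with means, 27 at 20 CPM, 15 without the 26 libraries and 21 to 29 without a letter. The median arm difference of T1 to T6 was 0.49 and 0.35 with pseudocounts of 1 and 5 and 0.36 without the 26 libraries; without a letter it was 0.40 to 0.45, 0.44 to 0.65 and 0.46 to 0.62 in the 3 periods. The causes were not tested. Depth limits members of a few CPM to differences of 1 or 2 counts.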

Other observations

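NVE6104 and NVE18428, members outside the group of 18, held no count in many libraries of both arms. NVE6104 was at 0 in 26 of 67 LD and 31 of 66 DD libraries, and NVE18428 in 18 of 67 LD and 22 of 66 DD libraries. Their residuals correlated with those of no other member above r = 0.26 and 0.25 (133 libraries). The median level of NVE6104 was 20.8, 10.5 and 1.50 CPM in LD over the 3 periods, against 15.6, 3.95 and 0 CPM in DD, while its mean was 25.6, 16.3 and 17.6 CPM in LD, against 20.2, 16.2 and 19.5 CPM in DD. The median level of NVE18428 was 8.62, 12.0 and 15.2 CPM in LD, against 4.86, 9.18 and 6.33 CPM in DD, and its mean was 15.7, 18.6 and 19.8 CPM in LD, against 8.12, 12.6 and 19.5 CPM in DD. Their arm difference thus rests on the median: in T13 to T17 the means of NVE6104 were lower in LD and those of NVE18428 nearly equal, and the SD of NVE6104 was 25.3 CPM in LD (n = 19), against 29.4 CPM in DD (n = 20).

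The pair of members with consecutive identifiers, NVE21654 and NVE21655, did not vary together between libraries beyond r = 0.12 (133 libraries).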
